A study of Mus musculus with 12 samples.

Results

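Antigen presentation by MHC class II was followed through 10 genes in T cells from mouse spleen, chosen by their known roles from the 49315 genes of the count table. The set held the chains of the classical molecules (H2-Aa, H2-Ab1 and H2-Eb1), the invariant chain Cd74, the transactivator Ciita, the peptide editor chains H2-DMa, H2-DMb1 and H2-DMb2, and the editor's inhibitor chains H2-Oa and H2-Ob. All 10 were found in the table by Ensembl identifier and all 10 passed the filter on low counts in every comparison, with at least 123 counts of each in each library. The samples came from 12-week-old male mice of a mixed S129/C57 background, either WT littermates or mice lacking miR-214 in all cells (miR-214-/-). Osmotic minipumps delivered Ang II (angiotensin II) at 490 ng/kg per day, or buffer in the sham groups, for 14 days. T cells were enriched from spleen by magnetic negative selection, and each of the 4 groups held 3 mice with 1 library per mouse. The deletion is not restricted to T cells, so that every splenic cell type of a miR-214-/- mouse lacked the microRNA.

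MHC class II molecules are heterodimers that carry peptides from endocytosed protein to the cell surface, where CD4 T cells read them. In mice they are made mainly by B cells, dendritic cells and macrophages, under the transactivator CIITA, whereas resting mouse T cells are known to make very little. The invariant chain CD74 fills the new heterodimer's groove, its remnant is exchanged for peptide by H2-M (the DM editor, H2-DMa with H2-DMb1 or H2-DMb2), and H2-O (H2-Oa with H2-Ob) restrains H2-M, mainly in B cells. C57BL/6 and 129 mice lack a working H2-Ea gene, so their surface class II is I-A, the pair of H2-Aa and H2-Ab1.

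Class II promoters share an arrangement of X and Y boxes on which CIITA is assembled. Promoter segments are printed here for members that the results turn on, since they show which hold the letters of both boxes 20 to 40 bases apart. Windows of 300 bases around start sites were taken from RefSeq (GRCm38.p6), and 7 of the 10 members had an entry. H2-Ab1, Cd74 and Ciita had none. The core of the X box was searched as ACNGATG and the Y box as GATTGG on both strands, and capitals mark the matches, an X core and a Y box in the first 3 segments and a Y box alone in the other 3. The window of H2-Oa also held X core letters, farther from its Y box and outside the printed segment.
H2-Eb1, chr17:34305747-34305821, plus strand: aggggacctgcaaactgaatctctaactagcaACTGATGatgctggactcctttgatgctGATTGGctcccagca
H2-DMb1, chr17:34153069-34153143, plus strand: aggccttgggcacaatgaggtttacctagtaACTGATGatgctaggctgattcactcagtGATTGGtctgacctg
H2-DMb2, chr17:34145098-34145172, plus strand: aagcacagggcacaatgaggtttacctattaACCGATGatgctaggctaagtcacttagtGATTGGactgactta
H2-Aa, chr17:34287858-34287932, minus strand: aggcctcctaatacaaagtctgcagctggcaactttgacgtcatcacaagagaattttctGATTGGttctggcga
H2-Oa, chr17:34092275-34092349, plus strand: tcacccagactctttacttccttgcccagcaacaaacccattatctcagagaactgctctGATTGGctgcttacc
H2-Ob, chr17:34238787-34238861, plus strand: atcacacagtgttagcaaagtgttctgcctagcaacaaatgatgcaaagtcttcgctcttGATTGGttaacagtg
The Y box letters lay in windows of all 7 members, against 16.1% of 32851 RefSeq windows, and the X core letters in windows of 5 members, against 9.85%. An X core followed by a Y box at a distance of 20 to 40 bases was held by 22 windows, or 0.067%, and H2-Eb1, H2-DMb1 and H2-DMb2 were among their genes. From the start of the X core to the start of the Y box the distance was 29 bases in both DM copies and 28 bases in H2-Eb1. A match is a description of letters in the window and not a measured site.

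The deleted microRNA is also shown, since 2 members carry its seed match. Mature miR-214-3p lies at chr1:162223438-162223459 on the plus strand (GRCm38.p6, RefSeq), and capitals mark its seed, bases 2 to 8.
mmu-miR-214-3p: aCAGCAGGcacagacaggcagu
The letters CCTGCTG that pair with this seed lay in an annotated 3′ UTR (GRCm38) of 20.2% of 21045 genes. Among the 10 members they lay in Ciita, at 4 places, and in H2-Ob, at 1 place. The matches are in capitals, with up to 11 bases on either side.
Ciita, first site: cCCTGCTGtactctggaca
Ciita, second site: aagcatgtcttCCTGCTGctcccaacagg
Ciita, further site: tctcctactgcCCTGCTGcatcctgggag
Ciita, site of another transcript: ctctcctggttCCTGCTGactcccaccca
H2-Ob: ctcatagagatCCTGCTGtctaagaagga
H2-Aa, H2-Ab1, H2-Eb1, Cd74, H2-DMa, H2-DMb1, H2-DMb2 and H2-Oa held no such match in their annotated 3′ UTRs.

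On GRCm38, 8 of the 10 members lie in the class II region of chromosome 17, between H2-Oa (chr17:34092340-34095234) and H2-Eb1 (chr17:34305867-34316674). Ciita lies at chr16:10480059-10528418 and Cd74 at chr18:60803848-60812652. Exons of H2-Oa share 321 of 1407 bases with BC051537 on the opposite strand, those of H2-DMa share 360 of 3448 with Brd2, and those of Ciita share 329 of 9535 with Dexi. The libraries keep strand, but the strand setting of the counting was not given in the sources used here, so that reads of these overlaps cannot be assigned with certainty.

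Libraries held 21126874 to 29605988 counts, and levels are given as CPM, the usual scaling of counts to library size, here after TMM (a trimmed mean of log ratios between libraries). The 12 T cell markers summed to 3238.5 to 5853 CPM per library and none of them was at 0, so the libraries held the transcripts of the labelled cell type throughout. Libraries also held transcripts of other cells, and the 12 B cell markers, none at 0 in any library, summed to the following CPM in replicates 1 to 3: 473, 94.1 and 146 with sham and 180.2, 219.8 and 151 with Ang II in WT mice, and 74.6, 135 and 94.7 with sham and 119, 591 and 81.8 with Ang II in miR-214-/- mice. WT sham replicate 1 and miR-214-/- Ang II replicate 2 stood apart from the other 10, and results on the members that rest on them are given with and without them. The Mir214 gene had 0 counts in all 12 libraries and its host transcript Dnm3os 1 count in total, and polyA libraries do not capture mature microRNA, which left no check of the genotype labels in these counts. As these are bulk samples, fewer cells of a type and less RNA per cell cannot be told apart.

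Class II transcripts were readily detected in these libraries of enriched T cells, and the cells that made them were not determined. Per kilobase of exon, Cd74 had the highest level at 208 ± 82.8 CPM per kb (SD, n = 12), followed by H2-Eb1 at 56.6, H2-Ab1 at 45.8 and H2-Aa at 31.6 CPM per kb. H2-DMa (13.2), H2-Ob (12.2), H2-DMb2 (8.37), H2-DMb1 (7.86) and H2-Oa (7.31) came next and Ciita was lowest at 2.39 CPM per kb. The range of Cd74 over the 12 libraries did not meet that of H2-Eb1, and from H2-Eb1 down to H2-Oa each gene's range overlapped that of its neighbour in this order. Over all 12 libraries H2-DMb2 varied most, 8.15-fold from lowest to highest, and H2-DMa least, 1.73-fold. Without the 2 libraries highest in B cell markers, H2-DMb2 ran from 5.37 to 16.1 CPM. In those other libraries H2-Oa (7.74 to 11.01 CPM) and H2-Ob (44.2 to 71.5 CPM) varied by a smaller factor than H2-DMa (36.1 to 62.3 CPM).

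**Figure D1:**
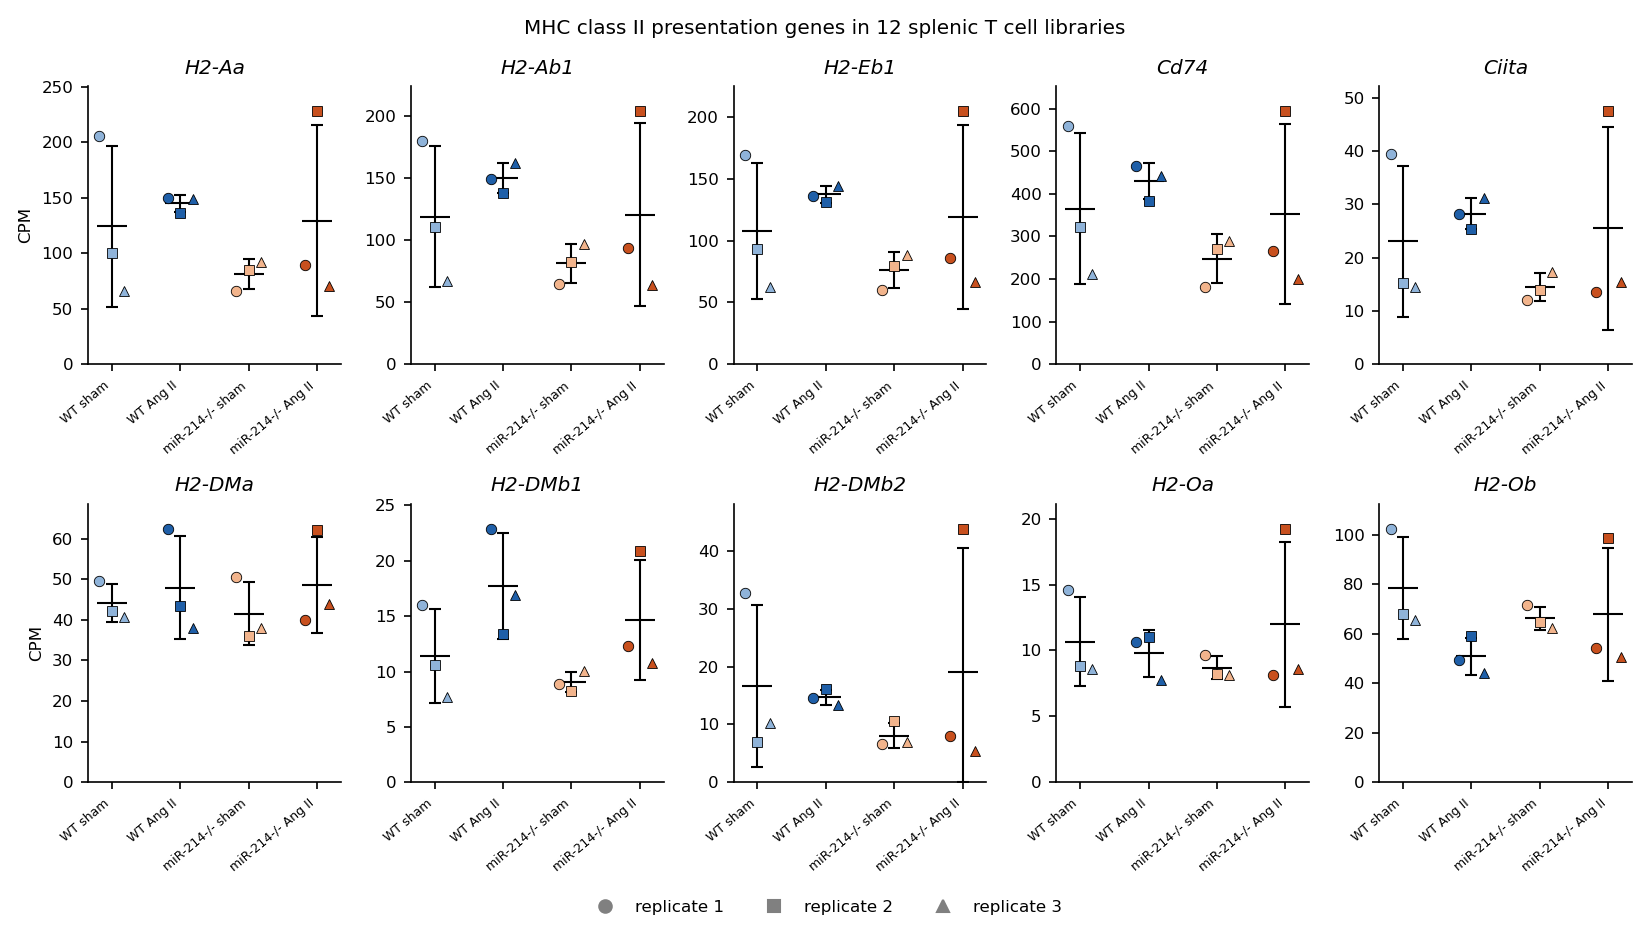
CPM of the 10 members in the 12 libraries, with 1 panel per gene and the y axis starting at 0. Points are libraries (symbol by replicate number), horizontal bars are group means and vertical bars 1 SD (n = 3), ended at 0 where the SD is larger than the mean. WT sham replicate 1 and miR-214-/- Ang II replicate 2 are the highest libraries for H2-Aa, H2-Ab1, H2-Eb1, Cd74, Ciita, H2-DMb2, H2-Oa and H2-Ob.

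The chains of I-A came first in role. H2-Aa stood at 206, 101 and 66.5 CPM in the 3 WT sham libraries, at 149.9, 136 and 149 CPM in the 3 WT Ang II libraries, at 65.9, 85.1 and 92.2 CPM in the 3 miR-214-/- sham libraries and at 89.4, 228 and 70.9 CPM in the 3 miR-214-/- Ang II libraries. The 3 WT Ang II libraries lay close together and inside the range of the WT sham libraries, which spanned 3.09-fold with replicate 1 on top. H2-Ab1, the partner of H2-Aa, ran beside it at these CPM: 179.6, 110.3 and 66.8 with sham and 149, 138 and 163 with Ang II in WT mice, and 65.1, 82.1 and 96.9 with sham and 93.6, 204 and 63.9 with Ang II in miR-214-/- mice. The ratio of H2-Aa to H2-Ab1 was 0.912 to 1.14 in the 6 sham libraries and 0.918 to 1.12 in the 6 Ang II libraries. H2-Eb1, the beta chain of I-E, was transcribed at 59.98 to 205 CPM, whereas the H2-Ea pseudogene H2-Ea-ps had 0 counts in 10 libraries and 1 count in each of the other 2. At 0 counts a level of up to 3 counts in that library remains possible, for counting error only.

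With Ang II in WT mice, the fitted log2 fold change was 0.24 (SE 0.37, adjusted p = 0.672) for H2-Aa, 0.36 (SE 0.32, adjusted p = 0.461) for H2-Ab1 and 0.37 (SE 0.33, adjusted p = 0.456) for H2-Eb1 by edgeR's quasi-likelihood test. In miR-214-/- mice it was 0.68 (SE 0.42, adjusted p = 0.538), 0.57 (SE 0.40, adjusted p = 0.581) and 0.65 (SE 0.40, adjusted p = 0.54) for the same genes. None of the 3 chains passed an adjusted p of 0.05 in either genotype. Without WT sham replicate 1 the WT values were 0.82, 0.78 and 0.84 (adjusted p = 0.058, 0.0891 and 0.0524), in a fit that called 1139 of 16638 genes. For each chain the 3 WT Ang II libraries then lay above both remaining sham libraries. The share of all genes that separate in this reduced comparison was not computed. With all WT libraries, 41.1% of genes had groups that did not overlap. Without miR-214-/- Ang II replicate 2 the miR-214-/- values were -0.015, -0.046 and 0.0047. Leaving out these libraries thus raised the WT values and took the miR-214-/- values to about 0. The difference between genotypes in the response to Ang II, tested as an interaction over 12 libraries, was 0.45 (SE 0.62, adjusted p = 0.747) for H2-Aa. It took the other sign without the 2 libraries highest in B cell markers, at -0.82 (adjusted p = 0.539), with the B cell markers as a covariate, at -0.35 (adjusted p = 0.646), and with the libraries scaled to T cell markers, at -0.051.

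Cd74, the chaperone of class II and also the receptor for the cytokine MIF, was the most abundant member. Cd74 stood at 559, 322 and 213 CPM in the 3 WT sham libraries, at 464, 383 and 442 CPM in the 3 WT Ang II libraries, at 183, 272 and 290.2 CPM in the 3 miR-214-/- sham libraries and at 266, 593 and 199.5 CPM in the 3 miR-214-/- Ang II libraries. Its order over the libraries was nearly that of H2-Aa (r = 0.99 of log2 CPM over 12 libraries), and the ratio of Cd74 to H2-Aa stayed between 2.61 and 3.20. The log2 fold change with Ang II was 0.26 (SE 0.32, adjusted p = 0.601) in WT and 0.52 (SE 0.40, adjusted p = 0.62) in miR-214-/-, and 0.71 (adjusted p = 0.088) and -0.091 without the library highest in B cell markers in each genotype.

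Ciita, the factor without which class II genes are not transcribed in presenting cells, was measured at the lowest level per kb. Ciita stood at 39.4, 15.3 and 14.6 CPM in the 3 WT sham libraries, at 28.2, 25.3 and 31.2 CPM in the 3 WT Ang II libraries, at 12.1, 13.9 and 17.4 CPM in the 3 miR-214-/- sham libraries and at 13.5, 47.4 and 15.4 CPM in the 3 miR-214-/- Ang II libraries. In the WT groups, 1 of 3 sham libraries lay above all 3 Ang II libraries and the other 2 lay below them. The fitted change with Ang II in WT was 0.31 (SE 0.38, adjusted p = 0.598), and without WT sham replicate 1 it was 0.94 (SE 0.14, adjusted p = 0.0278 by edgeR), which then passed. With all 6 libraries DESeq2 gave an adjusted p of 0.541, and the B cell markers were the reason for which this library was singled out, after the values were seen. In miR-214-/- mice the change of Ciita was 0.82 (SE 0.48, adjusted p = 0.516), and 0.0022 without replicate 2 of the Ang II group. Ciita is the member with 4 seed matches of miR-214-3p, and its level in miR-214-/- against WT was -0.68 (SE 0.39, adjusted p = 0.81) in sham and -0.15 (SE 0.47, adjusted p = 0.916) in Ang II, which passed in neither. Without the 2 libraries highest in B cell markers these values were -0.044 in sham and -0.96 in Ang II. For H2-Ob, with 1 match, the same comparisons gave -0.25 (SE 0.17, adjusted p = 0.842) and 0.42 (SE 0.26, adjusted p = 0.599), and without those libraries -0.008 and 0.047. The values of both genes in sham thus rested on WT sham replicate 1, and that of H2-Ob in Ang II on miR-214-/- Ang II replicate 2.

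The editor H2-M came next. H2-DMa, its alpha chain, was the steadiest member over all 12 libraries, but not without the 2 libraries highest in B cell markers. The group means of H2-DMa in WT mice were 44.1 ± 4.77 CPM after sham and 47.9 ± 12.8 CPM after Ang II, and in miR-214-/- mice 41.5 ± 7.80 and 48.6 ± 11.8 CPM (SD, n = 3 each). Its log2 fold changes in the 4 pairwise comparisons ran from -0.094 to 0.23, each smaller in size than those of the I-A chains in the same comparison. Without the 2 libraries highest in B cell markers they ran from -0.19 to 0.23. Part of the exonic bases of H2-DMa overlaps Brd2 on the other strand, as given above.

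H2-DMb1 and H2-DMb2 are neighbouring copies of the beta chain, of which only uniquely mapped reads were counted. H2-DMb1 stood at 16.04, 10.5 and 7.69 CPM in the 3 WT sham libraries, at 22.9, 13.4 and 16.9 CPM in the 3 WT Ang II libraries, at 8.84, 8.26 and 10.1 CPM in the 3 miR-214-/- sham libraries and at 12.3, 20.9 and 10.8 CPM in the 3 miR-214-/- Ang II libraries. In miR-214-/- mice the 3 Ang II libraries lay above the 3 sham libraries, and in WT mice the sham library of replicate 1 lay inside the Ang II range. H2-DMb1 had log2 fold changes with Ang II of 0.66 (SE 0.31, adjusted p = 0.178) in WT and 0.70 (SE 0.26, adjusted p = 0.382) in miR-214-/-. Without the library highest in B cell markers they were 0.98 (adjusted p = 0.0915) and 0.35 (adjusted p = 0.585). Over both genotypes it was 0.66 (SE 0.21, adjusted p = 0.0518), just short of the threshold. DESeq2 gave 0.68 for the same comparison (adjusted p = 0.0102), and edgeR with RLE scaling, library size alone, the adjusted-deviance fit or a filter of 10 counts in every library gave adjusted p between 0.0434 and 0.0494.

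H2-DMb2 stood at 32.8, 6.98 and 10.2 CPM in the 3 WT sham libraries, at 14.6, 16.1 and 13.4 CPM in the 3 WT Ang II libraries, at 6.68, 10.6 and 6.94 CPM in the 3 miR-214-/- sham libraries and at 8.05, 43.7 and 5.37 CPM in the 3 miR-214-/- Ang II libraries. WT sham replicate 1 and miR-214-/- Ang II replicate 2 were far above all the others, whose range was 5.37 to 16.1 CPM. The log2 fold change of H2-DMb2 with Ang II was -0.16 (SE 0.53, adjusted p = 0.85) in WT and 1.25 (SE 0.75, adjusted p = 0.531) in miR-214-/-, and without those 2 libraries it was 0.79 and -0.26, the other sign in both genotypes. The proportion of the copies changed between libraries. The ratio of H2-DMb2 to H2-DMb1 was 2.04 and 2.097 in those 2 libraries and 0.498 to 1.33 in the other 10. With the counts of both copies summed, the change with Ang II over both genotypes was 0.59 (adjusted p = 0.28 by edgeR).

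The inhibitor chains H2-Oa and H2-Ob came last in role. H2-Oa stood at 14.6, 8.84 and 8.599 CPM in the 3 WT sham libraries, at 10.6, 11.01 and 7.74 CPM in the 3 WT Ang II libraries, at 9.67, 8.22 and 8.15 CPM in the 3 miR-214-/- sham libraries and at 8.13, 19.2 and 8.59 CPM in the 3 miR-214-/- Ang II libraries. Apart from the 2 libraries highest in B cell markers, H2-Oa stayed between 7.74 and 11.01 CPM, and its log2 fold change with Ang II was -0.10 (SE 0.25, adjusted p = 0.799) in WT and 0.47 (SE 0.34, adjusted p = 0.598) in miR-214-/-, or 0.19 and -0.054 without those libraries. H2-Ob stood at 102, 67.9 and 65.5 CPM in the 3 WT sham libraries, at 49.5, 59.1 and 44.2 CPM in the 3 WT Ang II libraries, at 71.5, 64.8 and 62.5 CPM in the 3 miR-214-/- sham libraries and at 54.3, 98.6 and 50.6 CPM in the 3 miR-214-/- Ang II libraries. In WT mice the 3 Ang II libraries of H2-Ob lay below all 3 sham libraries, whereas in miR-214-/- mice replicate 2 of the Ang II group was the highest and the other 2 Ang II libraries lay below all 3 sham libraries.

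H2-Ob was the member with the smallest adjusted p in the WT comparison, -0.60 (SE 0.19, adjusted p = 0.0664) by edgeR, above the threshold of 0.05. DESeq2 gave -0.60 (adjusted p = 0.0106), and without WT sham replicate 1 edgeR gave -0.37 (adjusted p = 0.117). For H2-Ob in WT, edgeR with no filter gave an adjusted p of 0.0473, and edgeR with the summed B cell markers as a covariate gave -0.57 (adjusted p = 0.0238). In miR-214-/- mice the change of H2-Ob was 0.04 (SE 0.25, adjusted p = 0.962), and -0.34 (adjusted p = 0.516) without replicate 2. The interaction was 0.66 (SE 0.35, adjusted p = 0.386), and 0.049 without the 2 libraries highest in B cell markers, 0.28 with the B cell covariate and 0.18 with scaling to T cell markers, so that a difference between genotypes was not shown. Over both genotypes H2-Ob stood at -0.29 (SE 0.19, adjusted p = 0.313), and -0.36 (adjusted p = 0.031) without the 2 libraries highest in B cell markers.

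T cell markers also went down in the WT comparison in which H2-Ob was lower. In WT mice, 8 of 12 T cell markers fell with Ang II, led by Cd3d (-0.59), Lck (-0.55), Cd3g (-0.54), Cd247 (-0.52), Cd2 (-0.49) and Cd3e, at -0.48 (SE 0.087, adjusted p = 0.0137), and their sums were 4952, 5343 and 5853 CPM in sham against 4037, 3747 and 3238.5 CPM in Ang II. With the libraries scaled to T cell markers in place of TMM, which moved the median of all genes to 0.51 on the log2 scale, H2-Ob in WT was -0.10 (adjusted p = 0.729), H2-DMb1 1.15 (adjusted p = 0.02) and H2-DMa 0.64 (adjusted p = 0.0188). Against that shift H2-Ob lay below the median gene and H2-DMb1 and H2-DMa above it. The part of T cell content in these changes was not tested.

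Within a library, ratios between members need no scaling. The ratio of H2-Ob to H2-Oa was 7.02, 7.68 and 7.61 with sham and 4.66, 5.37 and 5.71 with Ang II in WT mice, and 7.39, 7.89 and 7.66 with sham and 6.68, 5.14 and 5.88 with Ang II in miR-214-/- mice. All 6 Ang II libraries lay below all 6 sham libraries, at 5.57 ± 0.696 against 7.54 ± 0.299 (SD, n = 6 each). The difference was -0.44 on the log2 scale (two-sided exact permutation test, p = 0.00216, the smallest that 6 against 6 can give). It was adjusted to 0.0108 over the 5 ratios examined. The ratios were chosen after H2-Ob was seen to be lower with Ang II, so these p values are not independent evidence. Once the groups do not overlap, the test gives its smallest p whatever the distance between them. Treatment labels were permuted over all libraries without regard to genotype. How many ratios between other genes separate in this way was not computed. With Ang II over both genotypes, edgeR called 15.9% of 16770 genes. Neither H2-Ob nor H2-Oa alone passed with Ang II in either genotype by edgeR as first fitted.

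Without the 2 libraries highest in B cell markers the difference in this ratio was -0.44 on the log2 scale (exact permutation p = 0.00794, again the smallest possible). Within each genotype the difference was -0.51 in WT and -0.38 in miR-214-/-, where 3 against 3 libraries allow no exact p below 0.1. H2-Ob relative to H2-Aa was also lower with Ang II, at 0.469 ± 0.161 against 0.78 ± 0.217 (SD, n = 6 each), with overlap (exact permutation p = 0.0173, adjusted 0.0433, and adjusted 0.0595 without the 2 libraries). For H2-Aa to H2-Ab1, Cd74 to H2-Aa and H2-DMb2 to H2-DMb1 the exact p values were 0.9, 0.201 and 0.517 by the same permutation. BC051537, whose exons share bases with H2-Oa on the other strand, stood at 1.18, 1.51 and 1.14 CPM with sham and 1.16, 1.53 and 0.931 CPM with Ang II in WT mice, and 1.33, 1.02 and 0.894 and 0.868, 1.01 and 0.698 CPM in miR-214-/- mice, and its part in the ratio was not tested.

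**Figure D2:**
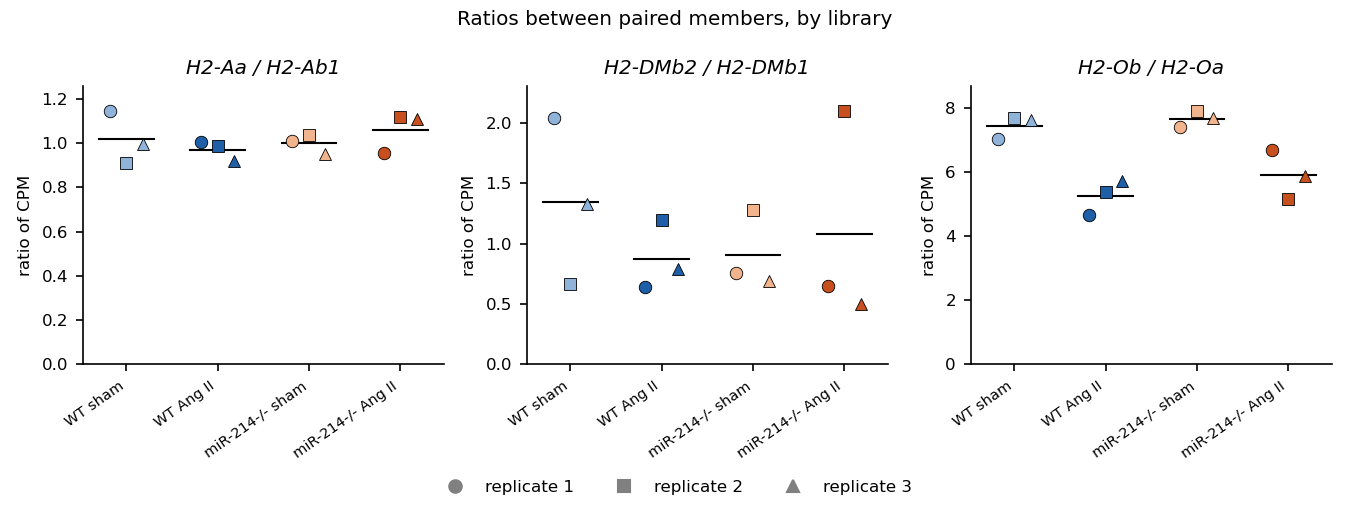
Ratios of CPM between H2-Aa and H2-Ab1, H2-DMb2 and H2-DMb1, and H2-Ob and H2-Oa in each library (points, symbol by replicate number), with the group mean as a line and y axes starting at 0. For H2-Ob to H2-Oa the 6 sham libraries lie between 7.02 and 7.89 and the 6 Ang II libraries between 4.66 and 6.68.

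Counted as a set, 0 of 10 members passed an adjusted p of 0.05 with Ang II in WT by edgeR, against 18.8% of 16012 genes tested, 1 member had an unadjusted p under 0.05, against 5705 genes or 35.6%, and 1 passed by DESeq2, against 3934 genes, H2-Ob in both cases. The median log2 fold change of the members was 0.25, beside -0.016 over all genes, with 7 members above 0 and 3 below. H2-Ob was the single member whose WT groups did not overlap, against 41.1% of all genes. The members thus gave no larger share of calls than genes at large, and an adjusted p that missed the threshold does not show that their levels were equal.

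In miR-214-/- mice 0 of 10 members passed with Ang II by edgeR, 1 (H2-DMb1) had an unadjusted p under 0.05 and 0 passed by DESeq2, where edgeR called 0% of 15937 genes. Over all genes an unadjusted p below the threshold was found for 1939, and DESeq2 called 326. All 10 members had a fitted change above 0, with a median of 0.61 beside 0.028 over all genes, but H2-DMb1 alone had groups that did not overlap, against 19.3% of genes. Without Ang II replicate 2 the median was -0.031, so that the positive values rested on that library.

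For miR-214-/- against WT in sham, 0 of 10 members passed by either tool and 0 had an unadjusted p under 0.05, against 0.0251% of 15913 genes called by edgeR. All 10 had fitted values below 0, from -1.06 for H2-DMb2 to -0.094 for H2-DMa, with a median of -0.53 beside -0.009 over all genes. An unadjusted p under 0.05 was found for 1061 genes, and DESeq2 called 75. Groups of 0 members were apart, against 10.2% of genes, and without WT sham replicate 1 the median was -0.035.

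In Ang II, miR-214-/- against WT gave 0 of 10 members by either tool and 0 at an unadjusted p under 0.05, against 0% of 16215 genes by edgeR, with 1388 at an unadjusted p below the threshold, and 25 genes by DESeq2. The median member was at -0.15 (all genes 0.00097), with 6 members below 0, and 0 members had groups apart, against 14.0% of genes. Without miR-214-/- Ang II replicate 2 the I-A chains, H2-Eb1, Cd74 and Ciita were at -0.96 to -0.84 on the log2 scale, all with an adjusted p of 0.827 in a fit that called 0 genes. The remaining miR-214-/- Ang II libraries, at 63.9 to 93.6 CPM for H2-Ab1, then lay below all 3 WT Ang II libraries. The share of all genes that separate in this reduced comparison was not computed.

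Neither of the 12-library tests of genotype called a member. The interaction called 0 of 10 members and 0 at an unadjusted p under 0.05, against 0.00596% of 16770 genes, and DESeq2 also called 0 members. The interaction median was 0.38 (all genes 0.014), and -0.80 without the 2 libraries highest in B cell markers, so its sign turned with them. Ang II over both genotypes called 0 of 10 members by edgeR and 1, H2-DMb1, by DESeq2 and at an unadjusted p under 0.05, against 15.9% of genes by edgeR, 3765 genes by DESeq2 and 33.1% at an unadjusted p under 0.05. Its median was 0.45 beside 0.00032 over all genes, and 0.11 to 0.69 with 1 library left out. Genotype over both treatments called 0 members by either tool and 0 at an unadjusted p under 0.05, against 0% of genes by edgeR. Over all genes 309 had an unadjusted p below the threshold and 3 passed by DESeq2. The members' median was -0.34 beside -0.0041 over all genes, and -0.68 to -0.11 with 1 library left out.

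**Figure D3:**
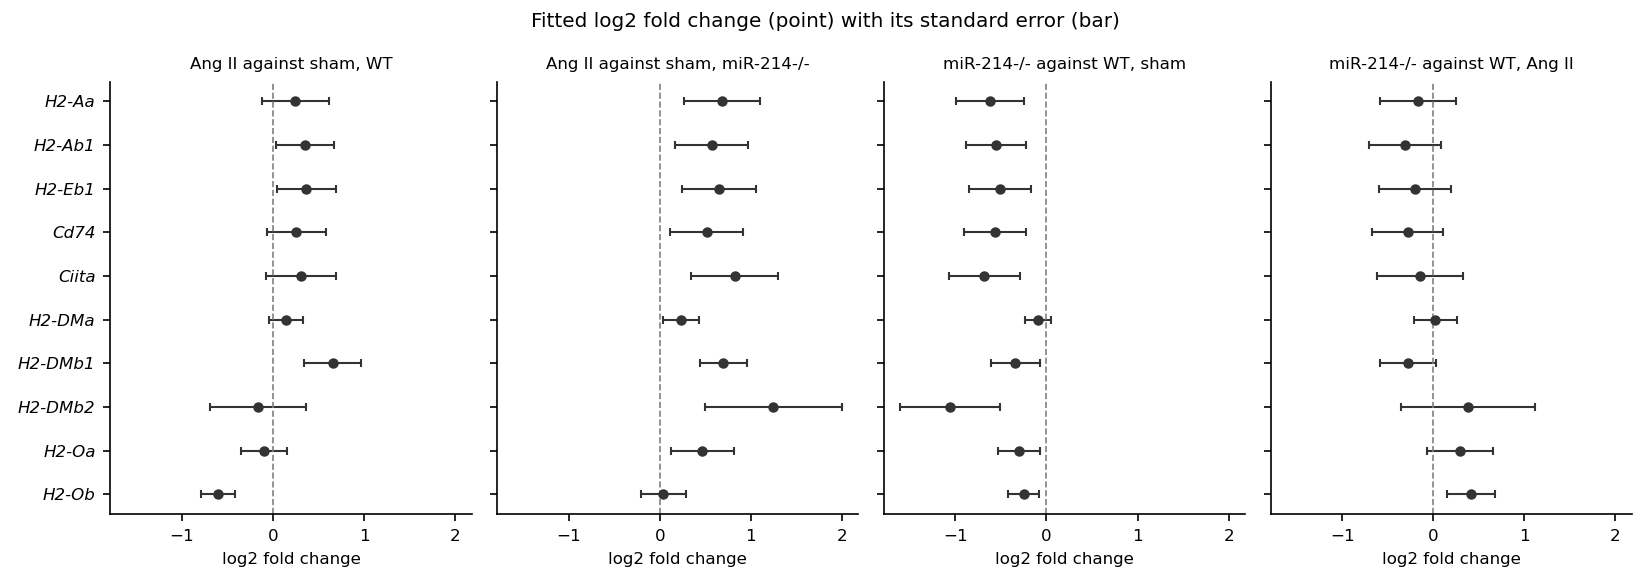
Fitted log2 fold change of each member (point) with its standard error (bar) in the 4 pairwise comparisons, with a dashed line at 0. None of the members passed the adjusted threshold. H2-Ob in WT lies at -0.60 while H2-DMb1 lies at 0.66 in WT and 0.70 in miR-214-/-, and the bars of H2-DMb2 are the widest.

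The chains of I-A, H2-Eb1, Cd74 and Ciita moved together from library to library, and H2-Ob followed them only in part. Over 12 libraries, log2 CPM of these 5 genes correlated pairwise at r between 0.93 and 0.995, and over the 10 libraries without those highest in B cell markers at 0.88 to 0.998. With the 5 genes, H2-DMb2 had r of 0.84 to 0.90 over 12 libraries and 0.72 to 0.75 over 10, and H2-DMb1 0.86 to 0.88 and 0.82 to 0.87. Both DM beta chains thus ran with the block, and with each other at 0.69 over 12 libraries and 0.55 over 10. H2-DMa had r of 0.46 to 0.56 with the 5 genes over 12 libraries and 0.15 to 0.25 over 10.

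For H2-Ob the value depended on what was compared. With the 5 genes its r was 0.29 to 0.39 over 12 libraries, 0.77 to 0.84 after centring on group means and -0.71 to -0.54 over 10 libraries. With its partner H2-Oa it was 0.76, 0.98 and 0.12 in the same order, and with H2-DMb1 0.044, 0.69 and -0.78. H2-Ob thus moved with the other members within groups when the 2 libraries highest in B cell markers were included, and its positive r with the 5 genes rested on them. These are descriptions over libraries that share their groups and their scaling, with no test.

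**Figure D4:**
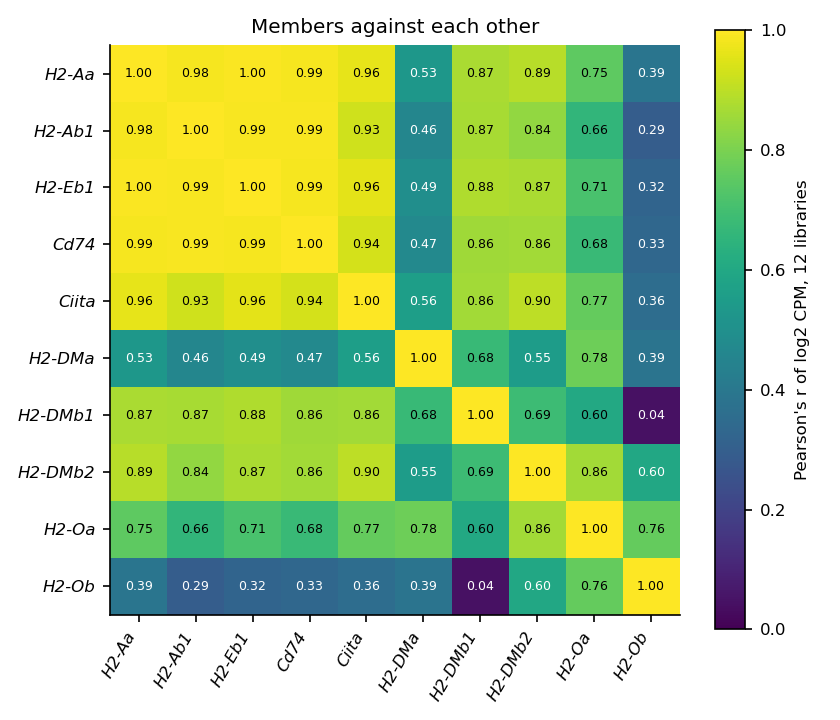
Pearson's r of log2 CPM between the 10 members over 12 libraries, by colour and by the value in each cell. H2-Aa, H2-Ab1, H2-Eb1, Cd74 and Ciita form a block at 0.93 and above, and the row of H2-Ob runs from 0.044 to 0.76.

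Transcripts of presenting cells were compared with the members over the same libraries, in 30 relations adjusted together. H2-DMb2 followed the summed B cell markers most closely, at r = 0.99 and rho = 0.98 (permutation p = 1e-05 for each, the smallest that 100000 permutations can give, adjusted 0.0003). Without the 2 libraries farthest from the median, r was 0.96, and its slope of 0.97 log2 per log2 was near proportion. H2-Aa followed at r = 0.87 (permutation p = 0.00024, adjusted 0.0016) and rho = 0.80 (permutation p = 0.00243, adjusted 0.0137), and r = 0.70 over the other 10 libraries. Cd74, H2-Ab1, H2-Eb1 and Ciita had r between 0.81 and 0.88 and rho between 0.78 and 0.85 (adjusted permutation p at most 0.0027 and 0.0189), with r between 0.66 and 0.70 over the other 10. The slopes of these 4 genes, 0.51 to 0.62, were below that of H2-DMb2. Against the dendritic cell markers other than Ccr7, which T cells also express, the 5 genes had r between 0.68 and 0.73 and rho between 0.69 and 0.75 (adjusted permutation p at most 0.0291 and 0.0425), and r between 0.70 and 0.75 without the 2 farthest libraries. The 5 genes therefore followed both marker sums, which were not separated here. H2-Oa had r = 0.87 with the B cell markers (permutation p = 0.00172, adjusted 0.00573) and rho = 0.52 (permutation p = 0.0891, adjusted 0.167), and r = 0.40 without the 2 farthest libraries.

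H2-Ob with the B cell markers had r = 0.62 and rho = 0.13 (permutation p = 0.0304 and 0.699, adjusted 0.0536 and 0.749), and r = -0.36 without the 2 farthest libraries, on which the relation thus rested. H2-DMb1 was closest to the dendritic cell markers, at r = 0.85 and rho = 0.91 (permutation p = 0.0003 and 0.0001, adjusted 0.0016 and 0.0015), with r = 0.73 without the 2 farthest libraries. Against the summed macrophage and monocyte markers H2-DMb1 had r = 0.79 (permutation p = 0.00096, adjusted 0.0036) and rho = 0.68 (permutation p = 0.0188, adjusted 0.0435), and r = 0.59 without the 2 farthest libraries. Lyz2 alone held 1286 of the 2497 CPM of this sum in WT Ang II replicate 1. Neutrophil markers summed to 3256 CPM in that library, and the part of neutrophils in the Lyz2 level was not tested. Crosswise, r was 0.66 for H2-DMb1 with the B cell markers and 0.49 for H2-DMb2 with the dendritic cell markers (permutation p = 0.0185 and 0.105, adjusted 0.0347 and 0.132). In the same order rho was 0.64 and 0.61 (permutation p = 0.0272 and 0.0404, adjusted 0.0582 and 0.0809). Without the 2 farthest libraries r was 0.51 and 0.64. The difference between the copies was not tested. After centring on group means r was 0.99 for H2-DMb2 and B cell markers, 0.91 for H2-Ob and B cell markers and 0.83 for H2-DMb1 and dendritic cell markers.

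**Figure D5:**
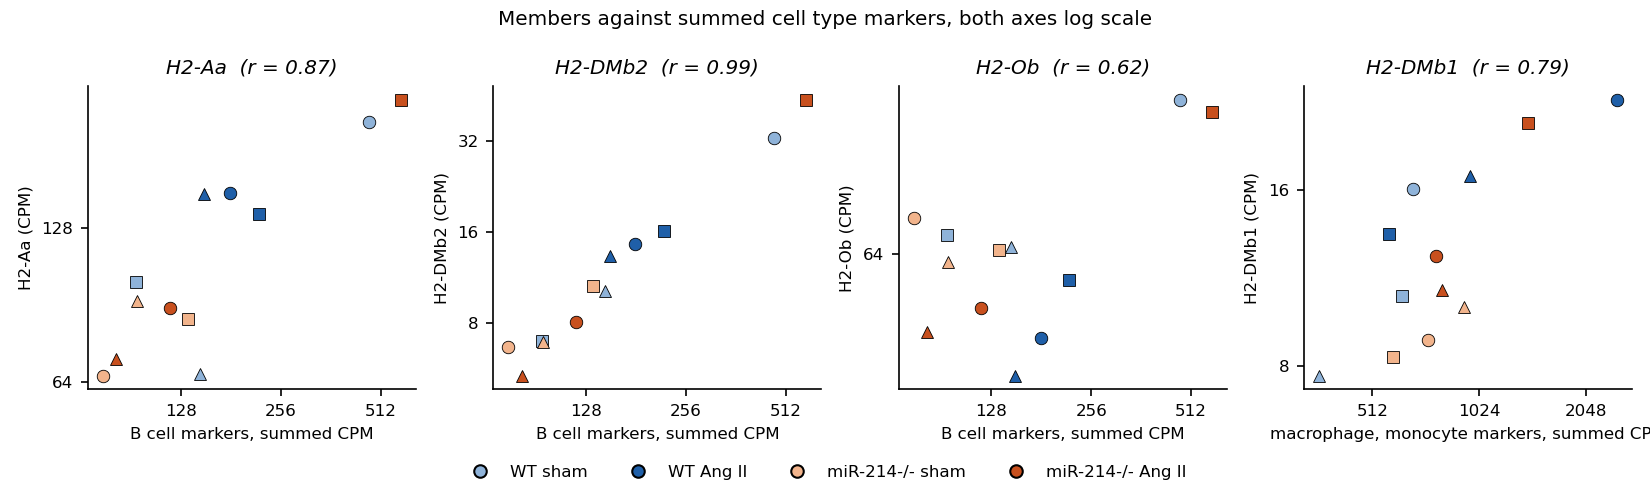
CPM of H2-Aa, H2-DMb2 and H2-Ob against summed CPM of 12 B cell markers, and of H2-DMb1 against that of 12 macrophage and monocyte markers, on log axes, with 1 point per library coloured by group and shaped by replicate (circle 1, square 2, triangle 3). H2-DMb2 lies on a line (r = 0.99), and for H2-Ob the 2 libraries highest in B cell markers lie above the other 10.

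Markers of presenting cells did not all move the same way with Ang II. In WT, 0 of 12 B cell markers passed by edgeR, 0 had an unadjusted p under 0.05 and all 12 had values below 0 (median -0.37), with Cd79a at -0.15 (SE 0.52, adjusted p = 0.864) and Ms4a1 at -0.32 (SE 0.65, adjusted p = 0.758). Of 10 dendritic cell markers, Zbtb46, at a log2 fold change of 1.60 (SE 0.45, adjusted p = 0.0481), and Xcr1, at 0.97 (SE 0.24, adjusted p = 0.0325), rose and Ccr7, at -0.65 (SE 0.078, adjusted p = 0.00403), fell. Flt3 was at 1.19 (adjusted p = 0.0757) and Itgax at 0.60 (adjusted p = 0.257). In WT mice Zbtb46 stood at 5.23, 8.05 and 3.46 CPM with sham and 8.04, 22.7 and 19.6 with Ang II. Klf1, a red-cell precursor marker, stood at 8.28, 23.7 and 10.97 and at 47.0, 172 and 137 CPM in the same libraries. Flt3 stood at 33.4, 15.1 and 22.5 CPM in the 3 WT Ang II libraries. The part of red-cell precursors in the Zbtb46 value was not tested. Of 12 macrophage and monocyte markers, Lyz2 rose, at 2.05 (SE 0.43, adjusted p = 0.0206), while Csf1r was at 0.82 (adjusted p = 0.39) and Adgre1 at 0.63 (adjusted p = 0.517). The sums of the dendritic cell markers without Ccr7 in CPM were 113, 62.2 and 45.0 with sham and 146, 93.5 and 107 with Ang II in WT mice, and 65.5, 63.7 and 67.7 with sham and 74.99, 77.6 and 68.5 with Ang II in miR-214-/- mice, and none of these markers was at 0 in any library. The macrophage and monocyte markers, also none at 0, summed in CPM to 666, 621 and 363 with sham and 2497, 569 and 966 with Ang II in WT mice, and 737, 586 and 929.9 with sham and 773, 1406 and 805 with Ang II in miR-214-/- mice. Over both genotypes, Lyz2 (1.42, adjusted p = 0.0324) and Itgam (1.05, adjusted p = 0.0486) rose and 0 B cell and dendritic cell markers passed. In the other 3 pairwise comparisons 0 B cell, dendritic cell and macrophage markers passed by edgeR. There edgeR called 0% of all genes in miR-214-/- with Ang II, and 0.0251% and 0% for genotype in sham and in Ang II. With so few calls, 0 markers passing says little about the markers. All 9 neutrophil markers rose with Ang II in WT, between 3.00 for Mpo and 3.34 for Ltf, and 0 of 5 plasma cell and 0 of 4 NK cell markers tested passed. All 5 plasma cell markers were above 0 (median 1.57), and 4 had an unadjusted p under 0.05 by edgeR, against 35.6% of genes. Their sums in WT were 215.5, 678 and 87.4 CPM with sham and 420, 1375 and 1653 CPM with Ang II. The part of all these cell types in the class II values was not tested. In the 3 WT Ang II libraries the neutrophil markers summed to 3256, 1076 and 1533 CPM, and Lyz2 stood at 1286, 376 and 546 CPM. The part of neutrophils in the Lyz2 and Itgam values was not tested.

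Genes that act before and after the members were counted from lists. Of 7 genes of lysosomal peptide preparation, 0 passed in WT, with 3 at an unadjusted p under 0.05, and 1 rose over both genotypes. That gene was Ifi30, the thiol reductase GILT, whose CPM was 51.6, 33.2 and 28.5 with sham and 102, 50.4 and 67.97 with Ang II in WT mice, and 40.8, 29.99 and 39.3 with sham and 52.3, 84.1 and 61.6 with Ang II in miR-214-/- mice. In miR-214-/- all 3 Ang II libraries of Ifi30 lay above the sham libraries, and in WT sham replicate 1 lay just above Ang II replicate 2. Its log2 fold change was 0.90 (SE 0.20, adjusted p = 0.0141) over both genotypes, 0.98 (SE 0.31, adjusted p = 0.068) in WT and 0.85 (SE 0.20, adjusted p = 0.259) in miR-214-/-. Ctss, the cathepsin that trims the invariant chain, was at 0.064 (SE 0.16, adjusted p = 0.803) in WT.

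Of the 7 factors that bind class II promoters, 0 passed in any comparison by edgeR (2 had an unadjusted p under 0.05 in WT), with Rfx5 at -0.12 (SE 0.10, adjusted p = 0.404) in WT. Of 14 inducers and repressors of Ciita, 1 rose and 3 fell with Ang II in WT, where edgeR called 18.8% of all genes. Spi1, the myeloid and B cell factor PU.1, rose, at 1.59 (SE 0.36, adjusted p = 0.0273). It stood at 84.3, 29.7 and 51.3 CPM in the WT Ang II libraries, beside neutrophil marker sums of 3256, 1076 and 1533 CPM. The part of myeloid cells in the Spi1 value was not tested. Among those that fell were Jak1, at -0.41 (SE 0.082, adjusted p = 0.0185), and Irf1, at -0.35 (SE 0.091, adjusted p = 0.0387), which carry the interferon signal to Ciita. The median of the 12 T cell markers in the same comparison was -0.53, and its part in these values was not tested. Over both genotypes Spi1 rose and Ifngr1, Jak1 and Irf1 fell, with changes of 1.13, -0.37, -0.32 and -0.23 on the log2 scale (adjusted p = 0.0211, 0.0467, 0.0362 and 0.0493).

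Of 3 genes for class II turnover at the surface, March8, a ubiquitin ligase that takes class II and the transferrin receptor from the surface, rose in WT, at 2.89 (SE 0.22, adjusted p = 0.00112). Its CPM was 4.27, 6.58 and 5.69 with sham and 36.5, 51.2 and 33.2 with Ang II in WT mice, and 4.19, 14.4 and 12.8 with sham and 26.9, 20.6 and 7.15 with Ang II in miR-214-/- mice. Over both genotypes it rose by 1.82 (adjusted p = 0.0267). Red-cell precursor markers summed in CPM to 509.9, 320.1 and 519 with sham and 5598, 2210.5 and 1010.5 with Ang II in WT mice, and 292, 508 and 471 with sham and 609, 4600.4 and 572 with Ang II in miR-214-/- mice. Of the 10, 5 rose in WT, among them Slc4a1 (4.17), Epor (3.11), Klf1 (3.06) and Gata1 (2.27), and their part in the March8 value was not tested. Cd83, which opposes the turnover of class II, was at 0.25 (SE 0.22, adjusted p = 0.446) in WT. On the T cell side of the contact, Cd4 fell, at -0.45 (SE 0.083, adjusted p = 0.0143), and Lag3, the inhibitory receptor for class II, rose, at 0.59 (SE 0.16, adjusted p = 0.0413), in WT, and neither passed in miR-214-/-, at 0.07 and 0.14. Cd4 is itself among the 12 T cell markers, whose median in WT was -0.53, and the part of T cell content in its fall was not tested. In miR-214-/- mice Lag3 stood at 13.5, 30.1 and 28.5 CPM with sham and 37.3, 20.4 and 21.3 CPM with Ang II. Plasma cell markers summed to 136, 823 and 819 and to 1075.5, 251 and 136 CPM in the same libraries. The part of cells other than T cells in the Lag3 values was not tested. The interaction was 0.54 (SE 0.15, adjusted p = 0.213) for Cd4 and -0.44 (SE 0.43, adjusted p = 0.633) for Lag3, so that a genotype difference was not shown. Of 5 costimulatory genes of presenting cells 0 passed in any comparison by edgeR. In miR-214-/- with Ang II and in both comparisons of genotypes 0 genes of the 7 pathway lists passed by edgeR. Those comparisons called 0%, 0.0251% (genotype in sham) and 0% of all genes, so this says little about the lists.

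The genes whose levels were most like the mean of the 10 members, among 16760 others over 12 libraries, were Ly6d (r = 0.97), Siglecg (0.96), Pxdc1 (0.95), H2-Eb2 (0.95), Sdc4 (0.94), Fcrla (0.94), Kynu (0.94), Snx8 (0.93), Cd40 (0.93) and Ms4a1 (0.93). Siglecg, Fcrla and Ms4a1 are known from B cells, Cd40 from B cells and other presenting cells, and H2-Eb2 is a further class II beta chain of the same region. H2-Eb2 was low, at 2.28 to 13.9 CPM and with log2 fold changes of -0.074 (SE 0.42, adjusted p = 0.917) in WT and 1.22 (SE 0.61, adjusted p = 0.46) in miR-214-/- with Ang II, highest in the 2 libraries that were highest in B cell markers. Ms4a1, which encodes CD20, ran from 6.94 to 75.1 CPM. Without the 2 libraries highest in B cell markers, r of these 10 genes was between 0.78 for Ms4a1 and 0.92 for Ly6d. These values of r are a ranking over libraries that share their scaling and carry no p.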

How the data were processed

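RNA was sequenced as stranded polyA libraries of splenic T cells. The values are raw counts per gene as deposited by the authors, who trimmed reads, mapped them to GRCm38 with STAR and counted uniquely mapped reads with featureCounts of Subread 1.5.2. The strand setting and annotation release are not given in the sources used here. Of 49315 identifiers, 49056 matched the GENCODE annotation used here (GRCm38). Libraries held 21126874 to 29605988 counts and 0 of 66 pairs were identical. In R 4.3.3, edgeR 4.0.16 was run with filterByExpr on the groups compared, TMM scaling, glmQLFit and glmQLFTest, and Benjamini-Hochberg adjustment over all genes tested, with 0.05 as threshold and CPM with a prior count of 2 for log2 values. The paper's tool, DESeq2 1.42.0, was an alternative. Scripts were tested on simulated data. Exact permutation tests over libraries (Python 3.11.15) were used for ratios and 100000 permutations for relations. Replicates are independent mice per the paper. Same-numbered libraries did not deviate together (r of deviations between -0.59 and 0.22), so they were not paired. The members, marker lists and pathway lists were chosen with earlier results of these data known. Named genes were the members, fixed pathway and marker genes, list genes that passed, and the 10 genes most like the members; a few list genes are not reported here by name. Leaving out the 2 libraries highest in B cell markers, the B cell covariate and the ratios were added after the values were seen. Scaling, filters, leave-one-out and the other alternatives are given in the closing section. Sequences came from RefSeq.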

Additional observations from a re-analysis of the deposited data

How the results depend on the processing

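The first fit by edgeR called 0 members in every comparison, so there was no called change that an alternative could reverse. Under the alternatives, 0 values passed with the other sign. Of 754 fitted values of single members under other settings, 673 kept sign and side of the threshold, 15 came to pass and 66 took the other sign without passing, and of 600 with a library left out the numbers were 538, 5 and 57. In WT with Ang II, 1 member passed with DESeq2, no filter, the B cell covariate (H2-Ob each time) or without the 2 libraries highest in B cell markers (Ciita), and 2 with T cell scaling. The median was 0.74 with T cell scaling and 0.78 without the 2 libraries. Over both genotypes, 1 member passed with DESeq2, the adjusted-deviance fit, RLE scaling, library size only, at least 10 counts in every library (H2-DMb1 each time), the B cell covariate or without the 2 libraries (H2-Ob), and 2 with T cell scaling. Without the 2 libraries the median was -0.031 in miR-214-/- with Ang II, -0.035 for genotype in sham, -0.85 for genotype in Ang II and -0.80 for the interaction. With the B cell covariate it was -0.0023 in miR-214-/- with Ang II, -0.025 for genotype in sham and -0.36 for the interaction. With 1 library left out, members passing ran 0 to 1 in WT with Ang II and 0 to 1 over both genotypes. The median ran 0.022 to 0.78 in WT with Ang II, -0.031 to 0.87 in miR-214-/- with Ang II, -0.81 to -0.035 for genotype in sham, -0.85 to 0.11 for genotype in Ang II -0.27 to 0.66 for the interaction, 0.11 to 0.69 over both genotypes and -0.68 to -0.11 for genotype over both treatments. Without WT sham replicate 1, Ciita passed in WT and the medians were 0.78 in WT and -0.035 for genotype in sham. Without miR-214-/- Ang II replicate 2 they were -0.031 in miR-214-/-, -0.85 for genotype in Ang II and -0.27 for the interaction. Over both genotypes H2-DMb1 passed without WT sham replicate 1, WT Ang II replicate 2 or miR-214-/- Ang II replicate 3, and H2-Ob without miR-214-/- Ang II replicate 2, each left out alone. With T cell scaling the 2 members that passed were H2-DMa and H2-DMb1, and the median of all genes moved to 0.51 in WT, 0.31 over both genotypes, -0.46 for the interaction and -0.31 for genotype in Ang II. With T cell scaling 7969 genes passed in WT in place of 3009, of which 99.9% in place of 62.4% were higher with Ang II, and over both genotypes 4482 in place of 2662, with 98.5% in place of 51.4% higher. The log2 ratio of H2-Ob to H2-Oa ran -0.50 to -0.39 with 1 library left out (exact permutation p = 0.00216 to 0.00433). In place of 0, 4, 0 and 1 genes by edgeR, DESeq2 called 326 in miR-214-/- with Ang II, 75 for genotype in sham, 25 for genotype in Ang II and 447 for the interaction. The causes were not tested.

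With the replicate number as a replicate block, 0 members passed in every comparison, as without it, and the median was 0.38 in WT with Ang II, 0.46 in miR-214-/- with Ang II, -0.43 and -0.34 for genotype in sham and in Ang II, and 0.22 for the interaction. The block moved the genes called over both genotypes from 2662 to 1799. The numbers are not shown to pair the mice. Each member had at least 123 counts in each library, and the effect of depth on the calls was not tested.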
